A study of Mus musculus with 21 samples.

Results

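Heme synthesis, globin production and the red cell lineage are represented here by 36 mouse genes, out of 14698 listed in at least 1 expression table of an RNA-seq series. The genes were chosen by name for what their proteins do, with earlier results of these data known, and not by how they moved. Members listed number 29 in the table of DMSO_treated and CHZ_treated (11670 genes), 29 in that of Ruxo_treated (11868 genes), 28 in that of CHZ_wash and DMSO_wash_exp3 (11355 genes) and 32 in that of Ruxo_wash and DMSO_wash (13085 genes). Of the 36 genes, 28 are in all 4 tables and 4 (Alas2, Slc4a1, Sptb and Ahsp) are in none.

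The cells are Ba/F3 cells, a line labelled as murine, pro-B and dependent on interleukin-3, here expressing JAK2-V617F, with which it no longer needs that factor. There are 21 libraries in 7 groups of 3. DMSO_treated, CHZ_treated and Ruxo_treated cells were kept for 6 h with DMSO, with 1 μM CHZ868 or with 1 μM ruxolitinib. CHZ_wash and Ruxo_wash cells had 1 h of the inhibitor, PBS washes and then 6 h without it, and their DMSO groups are DMSO_wash_exp3 and DMSO_wash. Values are the log2 CPM (counts scaled to a common library size) deposited by the authors, so a difference of 1 is a doubling. Only 1 cell line was used and the labels do not say that the 3 cultures of a group were grown independently, so each p value measures the spread between these samples, which may be technical.

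JAK2 carries the signal of the erythropoietin receptor, and its V617F form is found in blood diseases with too many red cells. Red cell precursors make heme in a chain of enzymes that starts and ends in the mitochondrion, take up iron through the transferrin receptor and place the heme in globin. Factors such as GATA1, KLF1 and NF-E2 switch on many of these genes, and ferritin stores iron that is not used.

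Some libraries stand apart. In Ruxo_treated replicate 2, transcripts of at most 1000 bases were low relative to those of at least 5000 bases, with a median log2 deviation of −0.17 for short minus long, beside 0.03 and 0.13 in replicates 1 and 3. In DMSO_wash_exp3 replicate 3 this measure was −0.20, beside −0.00 and 0.11. The median absolute log2 difference between replicates was 0.241 and 0.242 for the pairs with Ruxo_treated replicate 2 and 0.129 for the remaining pair, and 0.208 and 0.268 for the pairs with DMSO_wash_exp3 replicate 3 against 0.132. Member counts and differences of Ruxo_treated against DMSO_treated and of CHZ_wash against DMSO_wash_exp3 are therefore given with and without them. Transcripts of the mitochondrial genome made up 5.27, 5.16 and 6.76% of the CPM in CHZ_treated and 1.36, 1.36 and 1.29% in DMSO_treated, a difference that moves with the group. The shares were 1.68, 3.68 and 1.71% in Ruxo_treated, 2.86, 2.25 and 5.64% in DMSO_wash_exp3, 2.10, 1.75 and 1.85% in CHZ_wash and from 2.82 to 3.27% in the table of Ruxo_wash. Reads on listed genes number from 7880170 to 10673266 per library in the 3 tables whose low values are whole reads, and the depth of the Ruxo_wash table is unknown.

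**Figure D1:**
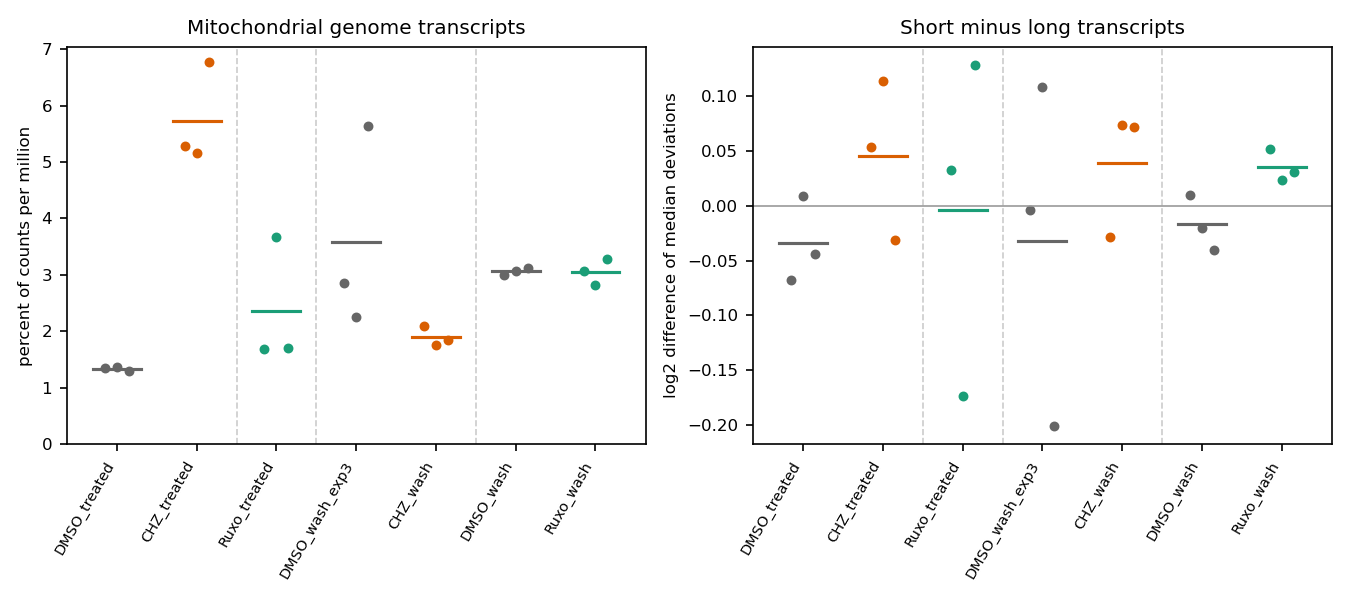
Percent of CPM from mitochondrial genome transcripts and the short minus long measure in each library. Bars are means of 3 and dashed lines separate the tables.

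The lineage of the cells was looked up through marker genes. Of 13 pro-B and B lineage markers 2 (Cd79a and Cd79b) are listed, the same in every table, and Pax5, Ebf1, Rag1 and Rag2 are listed in none. The sum of Cd79a and Cd79b was 29.2, 34.0 and 30.7 CPM in DMSO_treated and 40.1, 38.4 and 39.8 in CHZ_treated. In Ruxo_treated this sum was 44.8, 39.1 and 38.6 CPM. Csf2rb, a chain of the interleukin-3 receptor, read 1659, 1672 and 1666 CPM in DMSO_treated and 1246, 1279 and 1373 in CHZ_treated. Late red cell markers that are listed number 3 of 10 in the tables of the 6 h groups, 2 in that of CHZ_wash and 6 in that of Ruxo_wash, and Alas2, Slc4a1 and Ahsp are in no table. The megakaryocyte marker Itga2b read 712, 705 and 684 CPM in DMSO_treated, 368, 349 and 382 in CHZ_treated and 633, 441 and 653 in Ruxo_treated, and it makes up most of the CPM of the 3 listed megakaryocyte markers out of 5. The other listed ones did not go down with CHZ868: Gp1ba read log2 CPM of 3.50, 3.32 and 3.53 in DMSO_treated and 3.99, 4.20 and 4.15 in CHZ_treated, and Gp9 read 2.54, 2.51 and 3.17 against 3.21, 3.06 and 2.57. Granulocyte and macrophage markers listed at 6 h number 2 of 6 (Prtn3 and Csf1r, while Mpo and Elane are in no table), with a sum of 44.1, 47.9 and 45.9 CPM in DMSO_treated, 23.9, 27.6 and 22.4 in CHZ_treated and 43.4, 21.8 and 47.2 in Ruxo_treated. The myeloid and B cell factor Spi1 read log2 CPM of 5.31, 5.40 and 5.22 in DMSO_treated and 6.05, 6.04 and 6.10 in CHZ_treated. The part of these shifts in the results below was not tested. No T cell marker out of 4 is listed.

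Levels of different genes can be set beside each other only per transcript length, taken as CPM per kilobase of the longest annotated transcript. In DMSO_treated the highest members were Ftl1 (mean 658), Hba-a1 (487), Fth1 (439), Nfe2 (216), Gata2 (195) and Zfpm1 (185), which placed Ftl1 between ranks 32 and 49 of 11166 genes. At the low end were Alas1 (7.31), Uros (6.90), Fech (5.85) and Epb42 (1.97). In DMSO_wash the order began with Hba-a1 (5405), Ftl1 (4881), Fth1 (1397) and Hbb-bs (338), and in DMSO_wash_exp3 with Ftl1 (1011), Fth1 (949), Nfe2 (237) and Zfpm1 (213). In DMSO_wash_exp3 the SD of Ftl1 was 382. Its rank lay between 17 and 61 and that of Fth1 between 32 and 42, so their order differed between libraries. Each table was normalized by itself, so the same gene is not compared between tables except where said.

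Reads of close copies cannot be assigned with certainty. Hba-a1 and Hba-a2 are 99.8% identical over 538 bases, Hbb-bt and Hbb-bs 94.9% over 586 bases, and Ftl1 has 7 near copies, of which Ftl1-ps1 is 99.6% identical over 910 bases. Slc25a37 shares 382 bases (100%) with Gm16867, Fth1 shares 411 bases (91.2%) with Gm6977 and Bnip3l shares 663 bases (99.2%) with Bnip3l-ps. Fech and Cpox contain stretches that also occur in unrelated transcripts. Genes on the other strand overlap exons of the listed members Ank1 (862 bases), Ppox (791), Slc25a37 (473), Alas1 (465), Abcb10 (444), Ftl1 (355), Epb41 (233) and Cpox (204), and the notes do not state whether counting used the strand. Values of these members may include reads of the neighbour or copy.

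After 6 h of CHZ868 most of the listed heme, iron and erythroid genes differed from DMSO, more of them upward than downward. With a threshold of 0.05 on the adjusted p of limma (Benjamini-Hochberg over all genes of the table), 15 of 29 members were higher (51.7%, beside 26.8% of all 11670 genes) and 5 were lower (17.2%, beside 26.4%). The remaining 9 missed it. The median log2 difference was 0.29 over the members and −0.01 over all genes tested. Leaving out each library in turn gave 17 to 20 members, and 5081 to 6426 genes of the whole table in place of 6214. An exact permutation test of 3 against 3 libraries cannot go below p = 0.1, so smaller p values rest on the variance model of limma. In bulk RNA, more cells with a transcript and more transcript per cell cannot be told apart.

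By role, higher and lower members after CHZ868 numbered 4 and 2 of 7 heme synthesis genes, 1 and 2 of 4 genes of iron import and mitochondrial transport, and 2 and 0 of 4 genes of heme breakdown and iron storage. They numbered 3 and 0 of 5 red cell membrane genes and 4 and 1 of 7 erythroid transcription factors. The only listed globin gene missed the threshold and the mitochondrial clearance gene Bnip3l was higher. Of all genes tested 26.8% were higher and 26.4% lower. The 25% of iron import and mitochondrial transport genes that were higher and the 28.6% of heme synthesis genes that were lower are near these shares.

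Ruxolitinib at 6 h was set beside the same DMSO_treated libraries, which are in another table. Both tables are labelled as experiment 1, but each was normalized by itself, so no test was made. The median of each library over 11624 shared genes was brought to a common value, which shifted values by at most 0.03, and a member counts as above or below when the 3 libraries of the groups do not overlap. By this description 18 of 29 members lay above (24.6% of all shared genes did), 2 lay below (20.1%) and 9 overlapped. The median difference was 0.32, beside 0.04 over all shared genes. Without Ruxo_treated replicate 2 the counts were 22 above and 2 below, beside 31.6 and 25.7% of all genes, and the median was 0.34. Because CHZ_treated and Ruxo_treated are set against the same DMSO libraries, their differences are given side by side and no likeness between them was computed.

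**Figure D2:**
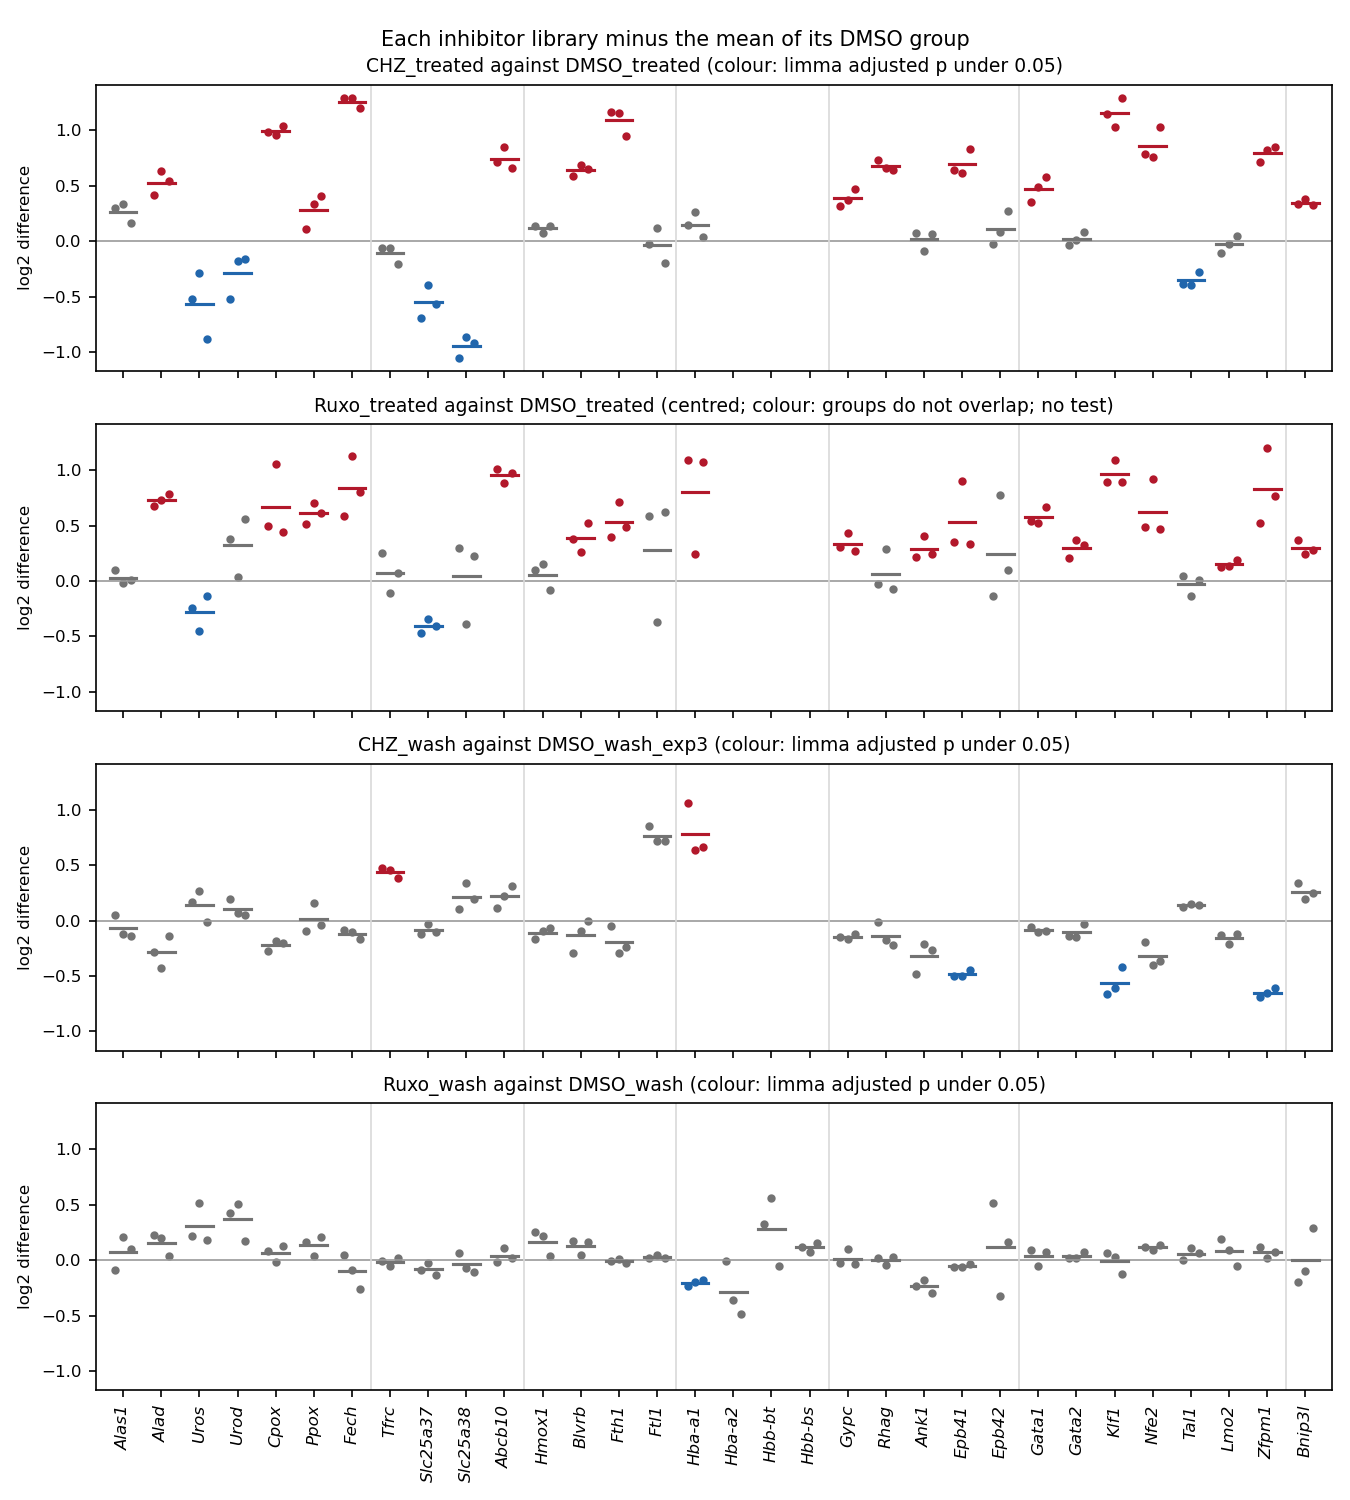
Each inhibitor library minus the mean of its DMSO group for every listed member, by role. Bars are means of 3.

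Heme synthesis opens with 5-aminolevulinate synthase, which has a general form, Alas1, and a red cell form, Alas2, that no table lists. Alas1 read 4.74, 4.52 and 4.63 in DMSO_treated, 4.93, 4.97 and 4.79 in CHZ_treated and 4.75, 4.62 and 4.69 in Ruxo_treated. Every CHZ_treated library lay above every DMSO_treated one, but the difference of 0.27 (95% interval 0.01 to 0.52) missed the threshold (limma with Benjamini-Hochberg, adjusted p = 0.0746). It passed with quantile normalization (0.34), with length and GC correction (0.37) and without CHZ_treated replicate 3 (0.32). Ruxo_treated overlapped DMSO_treated, with a difference of 0.03. Alad, which joins 5-aminolevulinate into porphobilinogen, rose by 0.53 with CHZ868, in all 3 libraries (limma with Benjamini-Hochberg, adjusted p = 9.70e-05). It read 5.72, 5.67 and 5.67 in DMSO_treated and 6.39, 6.42 and 6.51 in Ruxo_treated, where no library overlapped and the centred difference was 0.73.

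Uros and Urod, which close the porphyrin ring and trim its side chains, went the other way with CHZ868. Uros read 3.84, 3.92 and 3.99 in DMSO_treated, 3.40, 3.63 and 3.03 in CHZ_treated and 3.69, 3.47 and 3.82 in Ruxo_treated. All 6 inhibitor libraries lay below the 3 DMSO libraries. Uros fell by 0.56 with CHZ868 (limma with Benjamini-Hochberg, adjusted p = 0.0211, all 3 libraries lower) and stayed past the threshold in 3 of 6 fits with 1 library left out. With ruxolitinib its centred difference was −0.28, and −0.19 without replicate 2. Urod read 5.53, 5.63 and 5.67 in DMSO_treated, 5.09, 5.44 and 5.45 in CHZ_treated and 6.01, 5.65 and 6.21 in Ruxo_treated. With CHZ868 it fell by 0.29 (limma with Benjamini-Hochberg, adjusted p = 0.0408, all 3 libraries lower, 2 of 6 fits with 1 library left out). Without CHZ_treated replicate 1 its difference was −0.17. The call of Urod ended without the mean-variance trend, with median centring (−0.26) and with length and GC correction (−0.19), and that of Uros with quantile normalization (−0.42). With ruxolitinib Urod overlapped DMSO through replicate 2, and the centred difference was 0.32, or 0.47 and without overlap when that library was left out.

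The last 3 enzymes act at the mitochondrion. Cpox, which oxidises coproporphyrinogen, read 6.95, 7.02 and 7.07 in DMSO_treated, 7.99, 7.97 and 8.05 in CHZ_treated and 7.54, 8.07 and 7.50 in Ruxo_treated. All CHZ_treated and Ruxo_treated libraries were above those of DMSO_treated, and Ruxo_treated replicate 2 was the highest of its group. Cpox rose by 0.99 with CHZ868, or 1.99-fold (limma with Benjamini-Hochberg, adjusted p = 4.69e-09, 3 of 3 libraries higher). The centred difference with ruxolitinib was 0.67, and 0.47 without replicate 2. Ppox, the next oxidase, rose by 0.29 with CHZ868 in all 3 libraries (limma with Benjamini-Hochberg, adjusted p = 0.0229, 2 of 6 fits with 1 library left out and no call without the mean-variance trend) and lay 0.61 above DMSO with ruxolitinib. Fech, which inserts iron into the ring, had the largest rise among the members with CHZ868. It read 5.24, 5.31 and 5.25 in DMSO_treated, 6.55, 6.56 and 6.47 in CHZ_treated and 5.88, 6.39 and 6.11 in Ruxo_treated. No inhibitor library reached down to the DMSO values. Fech rose by 1.26 with CHZ868, or 2.40-fold (limma with Benjamini-Hochberg, adjusted p = 7.83e-09, 3 of 3 libraries higher, 1.25 to 1.29 with 1 library left out). With ruxolitinib the centred difference was 0.84, and 0.70 without replicate 2.

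Iron reaches the enzymes through the transferrin receptor Tfrc and the mitochondrial carrier Slc25a37, also called mitoferrin. Tfrc read 9.19, 9.08 and 9.16 in DMSO_treated, 9.08, 9.09 and 8.94 in CHZ_treated and 9.42, 9.04 and 9.26 in Ruxo_treated. The groups overlapped in both comparisons. The difference with CHZ868 was −0.11 (95% interval −0.23 to 0.02) and missed the threshold (limma with Benjamini-Hochberg, adjusted p = 0.141, all 3 libraries below the DMSO mean of 9.14). It passed with quantile normalization (−0.25, adjusted p = 0.00169) and with length and GC correction (−0.27, adjusted p = 0.000511), in the same limma fit with Benjamini-Hochberg adjustment. The centred difference with ruxolitinib was 0.07, and 0.16 without overlap when replicate 2 was left out. Slc25a37 read 6.90, 6.89 and 6.76 in DMSO_treated, 6.16, 6.46 and 6.29 in CHZ_treated and 6.41, 6.51 and 6.49 in Ruxo_treated. It was lower in all 6 inhibitor libraries. Slc25a37 fell by 0.55 with CHZ868 (limma with Benjamini-Hochberg, adjusted p = 6.59e-05), and its centred difference with ruxolitinib was −0.40.

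Slc25a38 brings glycine into the mitochondrion for the first step of heme synthesis. It read 4.68, 4.68 and 4.74 in DMSO_treated, 3.65, 3.84 and 3.79 in CHZ_treated and 5.02, 4.31 and 4.97 in Ruxo_treated. The CHZ_treated values were the lowest, while Ruxo_treated replicates 1 and 3 were above DMSO and replicate 2 below. Slc25a38 fell by 0.95 with CHZ868, or 1.93-fold (limma with Benjamini-Hochberg, adjusted p = 4.16e-05, 3 of 3 libraries lower). The centred difference with ruxolitinib was 0.04 with overlap, and 0.26 without overlap when replicate 2 was left out. Abcb10, an inner membrane transporter that stabilises mitoferrin, read 6.25, 6.29 and 6.36 in DMSO_treated, 7.02, 7.15 and 6.97 in CHZ_treated and 7.34, 7.19 and 7.32 in Ruxo_treated. All inhibitor libraries were higher. It rose by 0.74 with CHZ868 (limma with Benjamini-Hochberg, adjusted p = 7.75e-07) and lay 0.96 above DMSO with ruxolitinib.

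Heme is broken down by heme oxygenase, Hmox1, and biliverdin reductase B, Blvrb. Hmox1 read 5.57, 5.35 and 5.43 in DMSO_treated, 5.59, 5.53 and 5.59 in CHZ_treated and 5.58, 5.61 and 5.41 in Ruxo_treated. The groups overlapped, with differences of 0.12 for CHZ868 (limma with Benjamini-Hochberg, adjusted p = 0.309, 2 of 3 libraries above all DMSO libraries, 95% interval −0.08 to 0.32) and 0.06 for ruxolitinib. Blvrb read 5.14, 5.27 and 5.37 in DMSO_treated, 5.85, 5.95 and 5.92 in CHZ_treated and 5.67, 5.53 and 5.83 in Ruxo_treated. Inhibitor libraries were higher throughout. Blvrb rose by 0.64 with CHZ868 (limma with Benjamini-Hochberg, adjusted p = 4.26e-05, 3 of 3 libraries higher) and lay 0.39 above DMSO with ruxolitinib.

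The 2 ferritin chains that store iron are heavy (Fth1) and light (Ftl1). Fth1 read 9.80, 9.83 and 9.84 in DMSO_treated, 10.99, 10.98 and 10.77 in CHZ_treated and 10.24, 10.54 and 10.35 in Ruxo_treated. All inhibitor libraries were above DMSO, and those of CHZ_treated were the highest. Fth1 rose by 1.09 with CHZ868, or 2.13-fold (limma with Benjamini-Hochberg, adjusted p = 2.87e-09, 3 of 3 libraries higher), and lay 0.53 above DMSO with ruxolitinib, or 0.44 without replicate 2. Ftl1 read 9.15, 9.45 and 9.33 in DMSO_treated, 9.29, 9.43 and 9.11 in CHZ_treated and 9.92, 8.94 and 9.98 in Ruxo_treated. CHZ_treated overlapped DMSO, while in Ruxo_treated replicate 2 was the lowest of all and replicates 1 and 3 the highest. The difference with CHZ868 was −0.03 (limma with Benjamini-Hochberg, adjusted p = 0.756, 95% interval −0.21 to 0.14), and it was −0.21 with quantile normalization, which passed (adjusted p = 0.0436), and 0.14 with length and GC correction, which did not. With ruxolitinib the centred difference was 0.28 with overlap, and 0.60 without overlap when replicate 2 was left out.

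Translation and stability of several of these messages depend on iron-responsive elements, hairpins with the loop CAGTG. A search of annotated untranslated regions for this loop in a hairpin found the element in 123 of 21877 protein-coding genes (0.562%). Among the members it was in the 5 prime region of Fth1, Ftl1 and Alas2 and, 4 times, in the 3 prime region of Tfrc. The hairpins are printed, with the loop in capitals, to show the element that both ferritin chains and Tfrc share. A match describes the sequence and was not tested for function.

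Fth1: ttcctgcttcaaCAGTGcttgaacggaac
Ftl1: gtcttgcttcaaCAGTGtttgaacggaac
Alas2: ttggttcgtcctCAGTGcagggcaacagg
Tfrc first: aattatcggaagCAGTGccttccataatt
Tfrc second: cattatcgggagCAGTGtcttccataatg
Tfrc last: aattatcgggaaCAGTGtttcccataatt

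Globin is represented in the 6 h tables by Hba-a1 alone, an alpha chain gene. Hba-a2, Hbb-bt, Hbb-bs and the alpha chain chaperone Ahsp are not listed there. Hba-a1 read 8.33, 8.47 and 8.43 in DMSO_treated, 8.55, 8.67 and 8.44 in CHZ_treated and 9.53, 8.66 and 9.53 in Ruxo_treated. CHZ_treated overlapped DMSO through replicate 3, and Ruxo_treated was wholly above with replicate 2 well below the other replicates. The difference with CHZ868 was 0.15 (95% interval 0.01 to 0.29) and missed the threshold (limma with Benjamini-Hochberg, adjusted p = 0.0729, 2 of 3 libraries above all DMSO libraries). By the same test it passed with median centring (0.17, adjusted p = 0.0353), with length and GC correction (0.32, adjusted p = 0.000248) and without CHZ_treated replicate 3 (0.20, adjusted p = 0.00476), while with quantile normalization it was −0.02. With ruxolitinib the centred difference was 0.80, and 1.08 without replicate 2. Both alpha genes are so alike that part of these reads may come from Hba-a2.

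**Figure D3:**
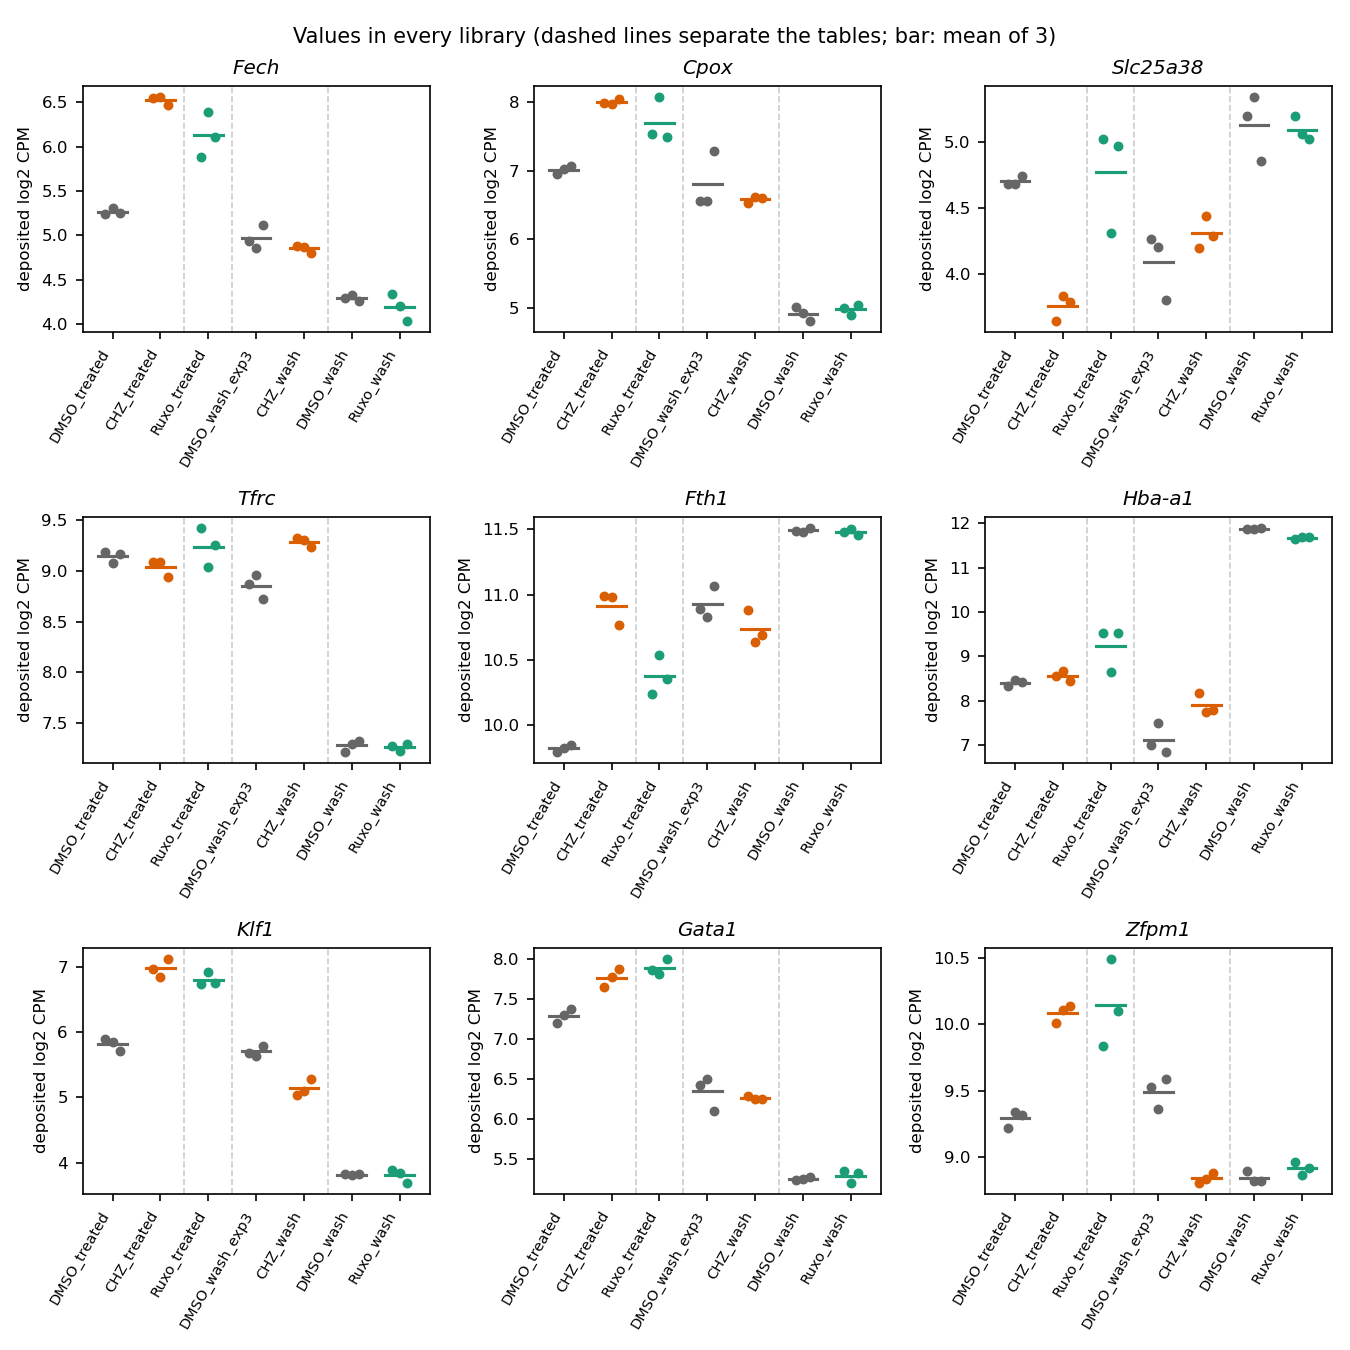
Deposited log2 CPM of 9 members in every library. Dashed lines separate tables that were normalized separately.

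Among the transcription factors, Klf1, which activates red cell genes, read 5.89, 5.85 and 5.72 in DMSO_treated, 6.97, 6.85 and 7.12 in CHZ_treated and 6.74, 6.92 and 6.75 in Ruxo_treated. All 6 inhibitor libraries were higher. Klf1 rose by 1.16 with CHZ868, or 2.23-fold (limma with Benjamini-Hochberg, adjusted p = 3.04e-08, 1.09 to 1.22 with 1 library left out), and lay 0.96 above DMSO with ruxolitinib, or 0.89 without replicate 2. Gata1, the central activator of the lineage, read 7.21, 7.31 and 7.38 in DMSO_treated, 7.65, 7.79 and 7.88 in CHZ_treated and 7.863, 7.822 and 8.004 in Ruxo_treated. Again no inhibitor library overlapped DMSO. It rose by 0.47 with CHZ868 (limma with Benjamini-Hochberg, adjusted p = 5.16e-05, 3 of 3 libraries higher), and the centred difference with ruxolitinib was 0.58. Its partner Zfpm1, also called FOG1, read 9.22, 9.34 and 9.32 in DMSO_treated, 10.01, 10.11 and 10.14 in CHZ_treated and 9.84, 10.49 and 10.10 in Ruxo_treated. Inhibitor libraries were all above DMSO. Zfpm1 rose by 0.80 with CHZ868 (limma with Benjamini-Hochberg, adjusted p = 2.66e-08, 3 of 3 libraries higher) and lay 0.83 above DMSO with ruxolitinib, or 0.64 without replicate 2.

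Gata2, which marks earlier progenitors, read 9.40, 9.45 and 9.48 in DMSO_treated, 9.41, 9.45 and 9.53 in CHZ_treated and 9.67, 9.82 and 9.81 in Ruxo_treated. CHZ_treated overlapped DMSO and Ruxo_treated lay wholly above it. The difference was 0.02 with CHZ868 (limma with Benjamini-Hochberg, adjusted p = 0.781, 95% interval −0.10 to 0.14). It passed the threshold downward with quantile normalization (−0.17, adjusted p = 0.0197) and upward with length and GC correction (0.21, adjusted p = 0.00191), so its direction depends on the scaling. With ruxolitinib it was 0.30. Nfe2, a subunit of NF-E2, read 8.67, 8.72 and 8.60 in DMSO_treated, 9.45, 9.43 and 9.70 in CHZ_treated and 9.18, 9.58 and 9.17 in Ruxo_treated. Values with either inhibitor were higher in every library. Nfe2 rose by 0.86 with CHZ868 (limma with Benjamini-Hochberg, adjusted p = 9.23e-08, 3 of 3 libraries higher) and lay 0.62 above DMSO with ruxolitinib, or 0.48 without replicate 2.

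Tal1 and Lmo2 belong to a complex that binds DNA beside GATA1. Tal1 read 8.27, 8.18 and 8.22 in DMSO_treated, 7.84, 7.83 and 7.95 in CHZ_treated and 8.30, 8.09 and 8.27 in Ruxo_treated. Only the CHZ_treated libraries were separate, and they were lower. Tal1 fell by 0.35 with CHZ868 (limma with Benjamini-Hochberg, adjusted p = 0.000148, 3 of 3 libraries lower), while the centred difference with ruxolitinib was −0.03 with overlap. Lmo2 differed by −0.03 with CHZ868, with overlap, and lay 0.15 above DMSO with ruxolitinib.

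Promoters of 300 bases (250 before the start site and 50 after it, RefSeq on GRCm38.p6) were found for 26 of the 36 members, 36 promoters in all, and searched on both strands. The GATA words AGATAA and TGATAA were in 5 and 6 of these, and in 11.2 and 9.05% of all 32851 promoters. The STAT word TTCNNNGAA was in 1 (Alas1), beside 8.3% of all promoters, and the KLF1 word CCACACCC in 1 (Hbb-bs), beside 3.56%. The word TGACNNNGC of NRF2 and BACH1 was in 5 promoters, of Epb41, Hbb-bt, Slc25a38 and Zfpm1, beside 12.4%. The 4 promoters printed here are of members with large differences after an inhibitor and carry GATA words, in capitals. They are chr8:84901732-84902031 (Klf1, word at −80 from the start site), chr16:58669958-58670257 (Cpox, −86 and +4), chr17:40810899-40811198 (Rhag, −31) and chr11:32283422-32283721 (Hba-a1, −183), all of genes on the plus strand. The words of Klf1, Cpox and Rhag are on the minus strand and so are printed as TTATCA or TTATCT, and that of Hba-a1 is on the plus strand. Of the tested members with a GATA word, Klf1, Cpox and Rhag rose with CHZ868, Uros and Tal1 fell and Hba-a1 and Epb42 were not called, and Gata1, Blvrb and Fth1 rose without any of these words. Binding was not tested.

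Klf1: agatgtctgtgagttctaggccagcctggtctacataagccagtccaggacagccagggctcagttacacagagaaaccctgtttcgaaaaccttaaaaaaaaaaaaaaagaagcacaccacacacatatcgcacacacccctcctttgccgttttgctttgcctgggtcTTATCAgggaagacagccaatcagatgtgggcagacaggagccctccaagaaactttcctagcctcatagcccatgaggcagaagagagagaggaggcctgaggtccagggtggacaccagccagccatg
Cpox: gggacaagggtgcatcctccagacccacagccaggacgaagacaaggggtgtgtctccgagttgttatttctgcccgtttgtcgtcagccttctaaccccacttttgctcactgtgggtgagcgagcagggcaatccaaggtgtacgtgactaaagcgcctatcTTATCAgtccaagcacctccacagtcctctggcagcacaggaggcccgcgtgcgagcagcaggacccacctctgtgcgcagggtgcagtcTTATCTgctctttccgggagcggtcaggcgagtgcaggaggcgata
Rhag: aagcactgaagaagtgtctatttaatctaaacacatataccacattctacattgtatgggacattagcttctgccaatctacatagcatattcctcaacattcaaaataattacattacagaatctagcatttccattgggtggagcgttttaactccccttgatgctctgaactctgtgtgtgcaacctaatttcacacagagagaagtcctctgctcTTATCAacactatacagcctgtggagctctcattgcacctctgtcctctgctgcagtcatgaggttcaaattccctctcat
Hba-a1: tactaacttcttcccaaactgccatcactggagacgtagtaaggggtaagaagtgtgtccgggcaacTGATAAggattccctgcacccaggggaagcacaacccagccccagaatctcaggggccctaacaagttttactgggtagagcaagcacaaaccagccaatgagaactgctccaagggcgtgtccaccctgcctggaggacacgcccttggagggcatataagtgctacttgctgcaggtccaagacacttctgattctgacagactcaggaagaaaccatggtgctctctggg

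Of the red cell membrane genes, Slc4a1 (band 3, the anion exchanger) and Sptb (beta spectrin) are in no table. Epb41, which ties spectrin to actin, rose by 0.70 with CHZ868 in all 3 libraries (limma with Benjamini-Hochberg, adjusted p = 2.73e-07) and lay 0.53 above DMSO with ruxolitinib, or 0.34 without replicate 2. Rhag, an ammonium channel of the Rh complex, read 7.67, 7.61 and 7.70 in DMSO_treated, 8.40, 8.32 and 8.30 in CHZ_treated and 7.65, 7.95 and 7.63 in Ruxo_treated. CHZ_treated libraries were the highest, and those of Ruxo_treated overlapped DMSO. Rhag rose by 0.68 with CHZ868 (limma with Benjamini-Hochberg, adjusted p = 1.52e-07, 3 of 3 libraries higher), beside a centred difference of 0.06 with ruxolitinib that was −0.05 without replicate 2. Gypc, a glycophorin, rose by 0.39 (limma with Benjamini-Hochberg, adjusted p = 0.000359, 3 of 3 libraries higher) and lay 0.34 above DMSO with ruxolitinib. The anchor protein Ank1 differed by 0.02 with CHZ868, or 0.21 and called with length and GC correction (limma with Benjamini-Hochberg, adjusted p = 0.0252), and lay 0.29 above DMSO with ruxolitinib, and Epb42, which links band 3 to ankyrin, differed by 0.11 and 0.25 with overlap in both, the latter becoming −0.02 without Ruxo_treated replicate 2. Bnip3l, which clears mitochondria from maturing red cells, rose by 0.35 with CHZ868 (limma with Benjamini-Hochberg, adjusted p = 0.000123, 3 of 3 libraries higher) and lay 0.30 above DMSO with ruxolitinib.

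For members whose ruxolitinib value is given above only with all libraries, the centred difference without Ruxo_treated replicate 2 was 0.05 for Alas1, 0.73 for Alad, 0.56 for Ppox, −0.44 for Slc25a37, 0.99 for Abcb10, 0.01 for Hmox1 and 0.45 for Blvrb. It was 0.60 for Gata1, 0.26 for Gata2, 0.03 for Tal1, 0.16 for Lmo2, 0.29 for Gypc, 0.23 for Ank1 and 0.32 for Bnip3l. Only that of Tal1 turned its sign, with overlap in both cases.

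After CHZ868 had been washed out for 6 h, few members differed from DMSO_wash_exp3. At a limma adjusted p under 0.05, 2 of 28 members were higher (7.14%, beside 1.96% of all 11355 genes) and 3 were lower (10.7%, beside 2.07%). At an unadjusted p under 0.05 the counts were 4 (14.3%, beside 11.8% of all genes) and 6 (21.4%, beside 12.6%). The median difference was −0.11, beside 0.01 over all genes. These counts hang on single libraries. Without CHZ_wash replicate 1, 2 or 3 or DMSO_wash_exp3 replicate 1 no member was called (0), without DMSO_wash_exp3 replicate 2 there were 7 and without its replicate 3, which stands apart, 9. Over the whole table the 457 called genes became 0, 1 and 0 without CHZ_wash replicates 1, 2 and 3, and 0, 1298 and 1426 without DMSO_wash_exp3 replicates 1, 2 and 3. Each of the 5 members was called in 2 of these 6 fits, which were those without DMSO_wash_exp3 replicate 2 or 3. Without the mean-variance trend their differences were the same but none was called, nor was any gene of the whole table.

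Members that went up after the CHZ868 washout were Hba-a1 and Tfrc. Hba-a1 read 7.01, 7.50 and 6.85 in DMSO_wash_exp3 and 8.18, 7.75 and 7.78 in CHZ_wash. All CHZ_wash libraries were higher. Hba-a1 rose by 0.78, or 1.72-fold (limma with Benjamini-Hochberg, adjusted p = 0.0377). Tfrc read 8.87, 8.96 and 8.72 in DMSO_wash_exp3 and 9.33, 9.31 and 9.24 in CHZ_wash. Here too the groups were separate. Tfrc rose by 0.44 (limma with Benjamini-Hochberg, adjusted p = 0.0356, 3 of 3 libraries higher).

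Zfpm1, Klf1 and Epb41 were the members that went down. Zfpm1 read 9.53, 9.36 and 9.59 in DMSO_wash_exp3 and 8.81, 8.84 and 8.88 in CHZ_wash. Every CHZ_wash library was lower. Zfpm1 fell by 0.65 (limma with Benjamini-Hochberg, adjusted p = 0.0148). Klf1 read 5.68, 5.64 and 5.79 in DMSO_wash_exp3 and 5.04, 5.09 and 5.28 in CHZ_wash. It was lower in each CHZ_wash library. Klf1 fell by 0.57 (limma with Benjamini-Hochberg, adjusted p = 0.0323). Epb41 read 8.50, 8.33 and 8.80 in DMSO_wash_exp3 and 8.05, 8.05 and 8.10 in CHZ_wash. The DMSO libraries were all higher, with replicate 3 the highest. Epb41 fell by 0.48 (limma with Benjamini-Hochberg, adjusted p = 0.0446, 3 of 3 libraries lower). Among markers of other lineages, Spi1 read 6.34, 6.18 and 6.73 in DMSO_wash_exp3 and 5.81, 5.76 and 5.97 in CHZ_wash. Prtn3 read 5.64, 5.96 and 5.36 against 5.97, 6.07 and 6.02, and in both the groups were separate. The groups overlapped for Ptprc, Il3ra, Csf2rb, Csf2rb2, Itgam and Csf1r. They also overlapped for the megakaryocyte markers Itga2b, Gp9 and Gp1ba and for Cd79a and Cd79b. What Spi1 and Prtn3 contribute to the result was not tested. With length and GC correction, an alternative added after the data were seen, 1 member (Epb41) and 18 genes of the whole table were called, and Zfpm1 (−0.32), Klf1 (−0.38), Tfrc (0.30) and Hba-a1 (0.82) were not.

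Other members did not pass the threshold after the CHZ868 washout. Ftl1 read 10.01, 10.37 and 9.20 in DMSO_wash_exp3 and 10.71, 10.57 and 10.57 in CHZ_wash. The CHZ_wash values lay above, DMSO_wash_exp3 replicate 3 was the lowest by far, and the difference was 0.76 (limma with Benjamini-Hochberg, adjusted p = 0.0803). It passed the threshold without DMSO_wash_exp3 replicate 2 (1.02, limma with Benjamini-Hochberg, adjusted p = 0.00808) and, at a smaller size, without replicate 3 (0.43, adjusted p = 0.00878), with all CHZ_wash libraries higher. With all libraries and a replicate block Ftl1 passed as well (0.76, limma with Benjamini-Hochberg, adjusted p = 0.0353). Fth1 read 10.89, 10.83 and 11.07 in DMSO_wash_exp3 and 10.88, 10.64 and 10.69 in CHZ_wash. Its groups overlapped, with a difference of −0.19. Nfe2 read 8.77, 8.67 and 8.94 in DMSO_wash_exp3 and 8.59, 8.39 and 8.42 in CHZ_wash. The groups were separate, at −0.32 (limma with Benjamini-Hochberg, adjusted p = 0.0803, 3 of 3 libraries lower), and Nfe2 passed without DMSO_wash_exp3 replicate 2 (−0.38) or 3 (−0.25). Gata1 read 6.44, 6.51 and 6.11 in DMSO_wash_exp3 and 6.29, 6.25 and 6.26 in CHZ_wash, and Gata2 read 9.35, 9.41 and 9.48 against 9.27, 9.27 and 9.38. Both overlapped, with differences of −0.08 and −0.11 that turned to 0.00 and 0.04 with length and GC correction.

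Heme enzymes overlapped between CHZ_wash and DMSO_wash_exp3. Alas1 read 5.76, 5.82 and 5.67 in DMSO_wash_exp3 and 5.80, 5.62 and 5.61 in CHZ_wash, and Fech read 4.93, 4.86 and 5.12 against 4.88, 4.87 and 4.80. Their differences were −0.07 and −0.12. Cpox read 6.56, 6.56 and 7.29 in DMSO_wash_exp3 and 6.53, 6.62 and 6.60 in CHZ_wash, and Urod read 5.24, 5.33 and 4.72 against 5.29, 5.17 and 5.15. DMSO_wash_exp3 replicate 3 was far from its group in both, and the differences of −0.22 and 0.11 became 0.02 and −0.08 without it. Slc25a37 read 6.63, 6.61 and 6.77 in DMSO_wash_exp3 and 6.55, 6.64 and 6.57 in CHZ_wash, a difference of −0.08 with overlap. Hmox1 read 7.10, 6.89 and 6.87 in DMSO_wash_exp3 and 6.79, 6.86 and 6.89 in CHZ_wash, and Blvrb read 5.54, 5.32 and 5.44 against 5.14, 5.34 and 5.42. These overlapped as well, at −0.11 and −0.13. Uros read 3.51, 3.33 and 3.44 in DMSO_wash_exp3 and 3.60, 3.69 and 3.41 in CHZ_wash, Slc25a38 read 4.27, 4.21 and 3.81 against 4.20, 4.44 and 4.29, and Tal1 read 8.60, 8.75 and 8.50 against 8.74, 8.77 and 8.76. All 3 overlapped and were higher on average in CHZ_wash, by 0.14, 0.21 and 0.14. Alad (−0.29), Ppox (0.01) and Rhag (−0.14) overlapped too. Abcb10 (0.22) and Bnip3l (0.26) lay wholly above and Ank1 (−0.32), Gypc (−0.15) and Lmo2 (−0.16) wholly below without passing the threshold. Epb42 is not in this table.

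Without DMSO_wash_exp3 replicate 3, limma called 4 members higher (14.3%, beside 6.68% of all genes) and 5 lower (17.9%, beside 5.87%). The differences of those called were 0.65 for Hba-a1, 0.43 for Ftl1, 0.37 for Tfrc, 0.28 for Bnip3l, −0.60 for Zfpm1, −0.52 for Klf1, −0.35 for Alad, −0.35 for Epb41 and −0.25 for Nfe2. In all 9 the remaining libraries of the groups did not overlap. Rhag turned from −0.14 to 0.13, with CHZ_wash wholly above, and Gata1 moved to −0.21, with CHZ_wash wholly below, neither past the threshold. For Urod and Cpox, whose signs also turned, the values are given above. Slc25a38 moved to 0.07, Tal1 to 0.08, Fech to −0.04, Fth1 to −0.12, Slc25a37 to −0.03 and Gata2 to −0.07. Alas1 (−0.11), Hmox1 (−0.15), Blvrb (−0.13), Uros (0.15), Ppox (0.04), Abcb10 (0.18), Gypc (−0.13), Ank1 (−0.33) and Lmo2 (−0.21) were not called either.

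After ruxolitinib had been washed out for 6 h, few members differed from DMSO_wash. Of 32 tested, 0 were higher (0% of all 13085 genes were) and 1 was lower (3.12%, beside 0.0229%, or 3 genes) by limma at an adjusted p under 0.05. At an unadjusted p under 0.05, 4 members were higher (12.5%, beside 3.39% or 444 of all genes), of them 3 of 7 heme synthesis genes, and 1 was lower (3.12%, beside 3.64% or 476 genes). The median difference was 0.04, beside 0.00 over all genes. No member was called (0) when Ruxo_wash replicate 1, 2 or 3 or DMSO_wash replicate 1, 2 or 3 was left out, and the whole table then gave 1 gene without Ruxo_wash replicate 2 and 0 without each of the other libraries.

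Hba-a1 was the member called. It read 11.88, 11.87 and 11.89 in DMSO_wash and 11.65, 11.68 and 11.70 in Ruxo_wash. The Ruxo_wash libraries were all lower. Hba-a1 fell by 0.21, or 1.15-fold (limma with Benjamini-Hochberg, adjusted p = 0.0367), and by 0.20 to 0.22 with 1 library left out, where it was called in 0 of 6 fits. The call also ended without the mean-variance trend, with median centring, quantile normalization, length and GC correction or a replicate block. In those fits the difference lay between −0.27 and −0.20. Some markers of other lineages moved by similar or larger amounts: Csf2rb read 7.70, 7.61 and 7.73 in DMSO_wash and 7.37, 7.19 and 7.39 in Ruxo_wash, Csf2rb2 read 5.68, 5.70 and 5.78 against 5.29, 5.31 and 5.28, Pf4 read 6.48, 6.58 and 6.54 against 6.76, 6.67 and 6.80, and Gp9 read 5.24, 5.27 and 5.08 against 5.54, 5.54 and 5.34. The other megakaryocyte markers overlapped. Ppbp read 1.959, 2.116 and 2.01 in DMSO_wash against 1.475, 2.157 and 1.657 in Ruxo_wash. Itga2b read 9.48, 9.53 and 9.49 against 9.49, 9.50 and 9.47, and Gp1ba read 3.29, 3.06 and 3.37 against 3.31, 3.10 and 3.17. Cd79b read 3.99, 4.17 and 4.28 in DMSO_wash against 4.51, 4.41 and 4.45 in Ruxo_wash. Prtn3 read 9.20, 9.19 and 9.15 against 9.29, 9.28 and 9.28, and Itgam read 3.60, 3.60 and 3.38 against 3.24, 3.34 and 3.30. Ptprc, Il3ra, Spi1, Cd79a, Csf1r and Lyz2 overlapped. The part of these markers in the result was not tested. This is the only table that lists further globin genes. Hba-a2, the near copy, read 5.42, 5.24 and 4.92 in DMSO_wash and 5.18, 4.83 and 4.70 in Ruxo_wash, and the beta chain genes read 2.40, 2.14 and 1.41 against 2.31, 2.54 and 1.93 (Hbb-bt) and 7.78, 7.64 and 7.77 against 7.85, 7.80 and 7.88 (Hbb-bs). Hba-a2 and Hbb-bt overlapped, and Hbb-bs lay above DMSO_wash. None passed the threshold, with differences of −0.29 (95% interval −0.70 to 0.13), 0.28 (−0.48 to 1.04) and 0.11 (−0.00 to 0.23).

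Heme and iron genes after the ruxolitinib washout overlapped their controls with few exceptions. Alas1 read 5.77, 5.66 and 5.68 in DMSO_wash and 5.61, 5.91 and 5.80 in Ruxo_wash, and Urod read 5.61, 6.08 and 5.85 against 6.28, 6.36 and 6.02. Ruxo_wash was higher on average, by 0.07 and 0.37. Cpox read 5.02, 4.92 and 4.81 in DMSO_wash and 5.00, 4.90 and 5.05 in Ruxo_wash, and Fech read 4.29, 4.33 and 4.26 against 4.33, 4.20 and 4.04. The differences were 0.07 and −0.10. Tfrc read 7.21, 7.29 and 7.32 in DMSO_wash and 7.27, 7.22 and 7.29 in Ruxo_wash, and Slc25a37 read 4.01, 4.08 and 4.05 against 3.96, 4.02 and 3.92. They differed by −0.01 and −0.08. Hmox1 read 5.50, 5.58 and 5.51 in DMSO_wash and 5.78, 5.75 and 5.56 in Ruxo_wash, and Blvrb read 5.91, 6.12 and 5.86 against 6.14, 6.01 and 6.13. Both were higher on average, by 0.17 and 0.13. Alad (0.15) and Uros (0.31) lay wholly above DMSO_wash, while Ppox (0.14), Slc25a38 (−0.04) and Abcb10 (0.04) overlapped.

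Ferritin and the transcription factors were also close. Fth1 read 11.49, 11.48 and 11.51 in DMSO_wash and 11.48, 11.50 and 11.46 in Ruxo_wash, and Ftl1 read 12.23, 12.20 and 12.18 against 12.23, 12.26 and 12.23. The differences were −0.01 and 0.03. Gata1 read 5.24, 5.25 and 5.28 in DMSO_wash and 5.35, 5.21 and 5.33 in Ruxo_wash, and Gata2 read 9.75, 9.67 and 9.67 against 9.71, 9.71 and 9.77. Each differed by 0.04 with overlap. Klf1 read 3.82, 3.80 and 3.83 in DMSO_wash and 3.89, 3.85 and 3.69 in Ruxo_wash, and Nfe2 read 8.31, 8.28 and 8.31 against 8.42, 8.39 and 8.43. Klf1 differed by −0.01, and Nfe2 was higher in every Ruxo_wash library, by 0.11, without passing the threshold (limma with Benjamini-Hochberg, adjusted p = 0.409). Zfpm1 (0.07), Tal1 (0.06) and Lmo2 (0.08) overlapped, as did Gypc (0.02), Rhag (0.00), Epb41 (−0.05), Epb42 (0.12) and Bnip3l (−0.00), and Ank1 (−0.24) lay wholly below.

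The washout effects of the 2 inhibitors were compared directly in a fit of all 12 washout libraries over 10078 genes that both tables list. Since each inhibitor was washed out in an experiment of its own, an effect of the inhibitor and one of the experiment, or of how each table was counted, cannot be told apart. Ribosomal protein genes made up from 16.1 to 16.9% of the CPM in the Ruxo_wash table and from 4.13 to 5.50% in the CHZ_wash table. Of 28 members 1 was higher for ruxolitinib minus CHZ868 (3.57%, beside 0.972% of all genes) and 2 were lower (7.14%, beside 0.923%), by limma at an adjusted p under 0.05. The median difference was 0.14, beside −0.01 over all genes. Zfpm1 was the higher, by 0.72 (limma with Benjamini-Hochberg, adjusted p = 0.00649). Its 3 CHZ_wash libraries were all below their controls while Ruxo_wash overlapped DMSO_wash, and it was called in 12 of 12 fits with 1 library left out. With length and GC correction it was 0.37 and was no longer called (limma with Benjamini-Hochberg, adjusted p = 0.127). Hba-a1 and Tfrc were the lower, by −0.99 and −0.45 (limma with Benjamini-Hochberg, adjusted p = 0.0371 for both), each called in 2 of 12 such fits. Neither was called without the mean-variance trend, and Tfrc was not with length and GC correction (−0.30, adjusted p = 0.303). In Hba-a1 all 3 Ruxo_wash libraries were below and all 3 CHZ_wash libraries above their controls.

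Differences between the washout effects that missed the threshold were 0.44 for Nfe2 (95% interval 0.21 to 0.66, limma with Benjamini-Hochberg, adjusted p = 0.0516) and 0.56 for Klf1 (0.25 to 0.86, adjusted p = 0.0594), with all 3 CHZ_wash libraries below their controls in both. Nfe2 passed in 9 of 23 alternatives, among them robust empirical Bayes, median centring, quantile normalization and both added constants, and Klf1 in 2, with log2(CPM + 5) and without DMSO_wash_exp3 replicate 2. Further differences were 0.44 for Alad (95% interval 0.16 to 0.72), 0.43 for Epb41 (0.15 to 0.71) and −0.73 for Ftl1 (−1.34 to −0.11). Epb41 was called with length and GC correction (0.57, limma with Benjamini-Hochberg, adjusted p = 0.00883) and without DMSO_wash_exp3 replicate 2 or 3. Alad was called without DMSO_wash_exp3 replicate 3. With 1 library left out Ftl1 ranged from −0.98 to −0.40, and it was called at −0.98, without DMSO_wash_exp3 replicate 2. For Fech the difference was 0.02 (−0.30 to 0.34), for Cpox 0.28 (−0.18 to 0.75), for Fth1 0.18 (−0.07 to 0.43), for Gata1 0.12 (−0.17 to 0.41) and for Gata2 0.14 (−0.04 to 0.33). Cpox ranged from 0.04 to 0.41, Fth1 from 0.11 to 0.25 and Gata1 from 0.04 to 0.24 with 1 library left out. The count of 3 members became 1 without Ruxo_wash replicate 1, 2 or 3, DMSO_wash replicate 1, 2 or 3, CHZ_wash replicate 2 or 3 or DMSO_wash_exp3 replicate 1, and 2 without CHZ_wash replicate 1. It became 7 and 6 without DMSO_wash_exp3 replicates 2 and 3. Over the whole table, 191 genes were called. That number was 18, 28 and 36 without Ruxo_wash replicates 1, 2 and 3, 36, 12 and 9 without DMSO_wash replicates 1, 2 and 3, 92, 11 and 5 without CHZ_wash replicates 1, 2 and 3, and 12, 628 and 530 without DMSO_wash_exp3 replicates 1, 2 and 3.

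The CHZ868 effect at 6 h was larger than that after washout for many members. In a fit of 12 libraries over 11175 genes that both tables list, 14 of 28 members were higher at 6 h than after washout (50%, beside 23.2% of all genes) and 7 were lower (25%, beside 23.8%), by limma at an adjusted p under 0.05. The median was 0.34, beside −0.02. The 2 effects are from separate experiments with different exposure times. Klf1, Zfpm1, Epb41 and Nfe2 had effects of 1.16, 0.80, 0.70 and 0.86 at 6 h and of −0.57, −0.65, −0.48 and −0.32 after washout, with all 3 CHZ868 libraries above their controls in the first case and below in the second. The differences between these effects were 1.72, 1.45, 1.18 and 1.18 (limma with Benjamini-Hochberg, adjusted p from 3.05e-08 to 4.13e-06). For Fech, Fth1 and Cpox they were 1.38, 1.28 and 1.21, mostly from the rise at 6 h. Alad, Rhag, Blvrb, Gata1, Gypc, Abcb10 and Ank1 followed with 0.82, 0.81, 0.77, 0.56, 0.54, 0.53 and 0.34. With 1 library left out Rhag ranged from 0.55 to 0.96 and Cpox from 0.969 to 1.335. Without DMSO_wash_exp3 replicate 3 the washout effect turned from −0.14 to 0.13 for Rhag and from −0.22 to 0.02 for Cpox. On the lower side were Slc25a38 (−1.16), Ftl1 (−0.79), Uros (−0.70), Hba-a1 (−0.64), Tfrc (−0.55), Tal1 (−0.49) and Slc25a37 (−0.46). Of the 21 members 18 were called in 12 of 12 fits with 1 library left out, Ftl1 in 9, Uros in 8 and Ank1 in 5, and the count ranged from 18 to 22. Ftl1 ranged from −1.05 to −0.46 in these fits and was not called without the mean-variance trend or with robust empirical Bayes. Uros and Ank1 were not called with quantile normalization, and the call of Ank1 ended in 10 of 23 alternatives.

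Further genes with related roles were counted in the same fits. Of 32 more heme, iron and iron-sulfur genes 26 were tested after 6 h of CHZ868, with 9 higher (34.6%, beside 26.8% of all genes), 8 lower (30.8%, beside 26.4%) and a median of 0.06. The largest rises were those of Hmox2 (0.75) and Pgrmc1 (0.65), and the largest falls those of Hfe (−1.50), Tmem14c (−1.10) and Slc39a14 (−1.08). Of 40 more erythroid genes 26 were tested, with 13 higher (50%), 5 lower (19.2%) and a median of 0.23, led by Stom (1.19), Hemgn (1.12) and Gfi1b (0.95) and, downward, Bcl2l1 (−1.69), Rhd (−0.48) and Tmod1 (−0.46). Of 17 genes of the BACH1 and NRF2 network 16 were tested, with 7 higher (43.8%), 5 lower (31.2%) and a median of 0.15. Nfe2l2 (1.00), Nqo1 (0.59) and Gclc (0.59) led the rises and Slc7a11 (−2.04), Nfe2l1 (−1.46) and Maff (−1.37) the falls. With ruxolitinib at 6 h, 8, 15 and 6 genes of these lists (26, 26 and 16 shared) lay above DMSO and 6, 1 and 6 below, where 24.6% of all shared genes lay above and 20.1% below. Without Ruxo_treated replicate 2 the counts were 10, 16 and 6 above and 7, 2 and 6 below, beside 31.6 and 25.7% of all shared genes. After the CHZ868 washout limma called 2, 0 and 0 of 25, 24 and 16 genes higher and 1, 3 and 0 lower, where 1.96% of all genes were called higher and 2.07% lower. At an unadjusted p under 0.05 there were 5, 0 and 2 higher and 3, 6 and 2 lower, beside 11.8 and 12.6% of all genes. Without DMSO_wash_exp3 replicate 3 limma called 3, 0 and 1 higher and 3, 4 and 1 lower, beside 6.68 and 5.87%. After the ruxolitinib washout it called 0 of 26, 25 and 15 genes, beside 2, 1 and 0 higher and 1, 1 and 1 lower without adjustment at p under 0.05, where 3.39% of all genes were higher and 3.64% lower.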

How the data were processed

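The values are log2 CPM as deposited. By the notes of the authors, reads were counted, converted to log2 CPM with a small constant, filtered for low expression and normalized by TMM with edgeR, each of the 4 tables by itself. The methods of the paper name kallisto and GRCm38, while the processing notes of the submitters name STAR 2.7.3a, edgeR 4.0.16 and GRCm39, and the values do not decide between them. Low values of 3 tables, under 20 reads, are whole reads after removal of a constant of 0.214 to 0.222 CPM, and those of the Ruxo_wash table are not. The library kit is described for mRNA and strand-specific libraries, and the notes do not say that counting used the strand.

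Comparisons within a table were fitted with limma 3.58.1 in R 4.3.3 (lmFit and eBayes with a mean-variance trend) over all genes of the table, with Benjamini-Hochberg adjustment and a threshold of 0.05. The files hold log2 CPM and no counts, so the trend form was used in place of the voom weights of the study, and reads worked back from the values were used only to describe libraries. Each fit held the 2 groups compared, or 4 group means for a difference between effects, and no further covariate. Intervals are 95% intervals of the same fit. Ruxo_treated and DMSO_treated are in separate tables, so they were described without a test. The fits were also run on simulated data, and no result given here rests on that.

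Members and further lists were chosen by name with earlier results of these data known. Values of every library are given for genes that define each step and, in each comparison, for up to 6 members with the largest rise and 6 with the largest fall past the threshold. From each further list up to 3 rises and 3 falls are named. Transcripts, lengths and untranslated regions are from GENCODE M21 on GRCm38, promoters from RefSeq, and near copies (at least 90% identity over 200 bases) were found with BLAST+ 2.17.0. Scripts ran in Python 3.11.15 and R.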

Additional observations from a re-analysis of the deposited data

Results flagged for a closer look

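Some effects differed between experiments. For ruxolitinib washout minus CHZ868 washout the log2 difference was 0.72 for Zfpm1, −0.45 for Tfrc and −0.99 for Hba-a1. With length and GC correction Zfpm1 (0.37) and Tfrc (−0.30) were no longer called, and with a replicate block or without the mean-variance trend Tfrc and Hba-a1 were not. The inhibitors were washed out in separate experiments, and which of these made the difference was not tested.

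For CHZ868 at 6 h minus CHZ868 washout, the effect was more positive at 6 h for Klf1 (1.72), Zfpm1 (1.45), Fech (1.38), Fth1 (1.28), Cpox (1.21), Nfe2 (1.18), Epb41 (1.18), Alad (0.82), Rhag (0.81), Blvrb (0.77), Gata1 (0.56), Gypc (0.54), Abcb10 (0.53) and Ank1 (0.34). It was more negative at 6 h for Slc25a38 (−1.16), Ftl1 (−0.79), Uros (−0.70), Hba-a1 (−0.64), Tfrc (−0.55), Tal1 (−0.49) and Slc25a37 (−0.46). The call of Ank1 ended in 10 of 23 alternatives, and those of Ftl1 and Uros in 6 each. With 1 library left out Rhag ranged from 0.55 to 0.96 and Cpox from 0.969 to 1.335. Exposure time, washing and experiment differ together here and cannot be told apart.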

How the results depend on the processing

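Length and GC correction was added after the data were seen. After 6 h of CHZ868, 20 members were called (15 higher and 5 lower), where 26.8% of all genes were higher and 26.4% lower. The number of members was 23 with quantile normalization (16 and 7), 24 with length and GC correction (19 and 5), 18 without the mean-variance trend, 17 at an adjusted p under 0.01 and 17 to 20 with 1 library left out, and genes of the whole table ranged from 5081 to 6426 with 1 library left out (6214 with all). Of all genes called, 50.4% were higher, 52.0% with quantile normalization and 50.6% with length and GC correction. The other counts are given without the share of all genes, so they do not show a change particular to the members. For the 6 h effect minus the washout effect of CHZ868 the ranges were 18 to 22 members and 4663 to 5583 genes. Members that did not overlap between Ruxo_treated and DMSO_treated numbered 20 to 24 with 1 library left out. The share of all shared genes moved too. It was 24.6% above and 20.1% below with all libraries. Without Ruxo_treated replicate 2 it was 31.6 and 25.7%, and 22 members lay above and 2 below.

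For Ruxo_wash against DMSO_wash, 1 member was called and this became 0 without the mean-variance trend, with median centring, with quantile normalization, with length and GC correction and at an adjusted p under 0.01, and 0 (lowest and highest) with 1 library left out. The 3 genes of the whole table became 9 without the trend, 5 with robust empirical Bayes, 0 at 0.01 and 0 to 1 with 1 library left out.

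For CHZ_wash against DMSO_wash_exp3, the 5 members became 0 without the trend, 0 at an adjusted p under 0.01, 1 with length and GC correction and 0 to 9 with 1 library left out. The 457 genes of the whole table became 0, 0, 18 and 0 to 1426 in these cases. The share of calls that were higher moved from 48.6 to 61.1% with length and GC correction.

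For ruxolitinib washout minus CHZ868 washout, the 3 members became 1 without the trend, 5 with log2(CPM + 5), 1 at an adjusted p under 0.01 and 1 to 7 with 1 library left out. The 191 genes became 14 without the trend, 4 at 0.01, 40 with length and GC correction and 5 to 628 with 1 library left out. The share of higher calls moved from 51.3 to 30% with length and GC correction, and the cause was not tested.

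With a replicate block, members called were 20 after 6 h of CHZ868, 0 for Ruxo_wash, 6 for CHZ_wash, 1 for the difference of washout effects and 20 for 6 h minus washout, and genes of the whole table were 6192, 0, 539, 6 and 5109. Libraries of the same number in the 2 groups of a comparison did not resemble each other, with correlations of their deviations from −0.07 to 0.09, so the numbers were not taken as pairs.

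Signs that turned belong to members not called with all libraries, and the only value to pass the threshold with its sign turned was that of Gata2 with quantile normalization. After 6 h of CHZ868, Ftl1 was 0.14 with length and GC correction and −0.11 to 0.0504 with 1 library left out, Hba-a1 was −0.0155 with quantile normalization, and Gata2 was −0.17 with quantile normalization and −0.0138 to 0.0482 with 1 library left out.

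For Ruxo_wash, Tfrc was 0.00500 with length and GC correction and −0.0442 to 0.0107 with 1 library left out, Fth1 was −0.0188 to 0.00161 and Hbb-bt −0.00812 to 0.49 with 1 library left out, Ftl1 was −0.00719 with quantile normalization, and Klf1 was 0.00116 with median centring and −0.0456 to 0.0508 with 1 library left out. For CHZ_wash, Urod was −0.0835 to 0.222 and Cpox −0.342 to 0.0241 with 1 library left out, turning only without DMSO_wash_exp3 replicate 3, where Rhag turned to 0.13, and Gata1 and Gata2 were 0.00256 and 0.0366 with length and GC correction.

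For the difference of washout effects, Fech was −0.0571 to 0.0945 with 1 library left out, Slc25a37 was −0.00676 with quantile normalization and −0.0474 to 0.0317 with 1 library left out, and Gata2 was −0.0135 with length and GC correction. For 6 h minus washout, Gata2 was −0.12 with quantile normalization. Signs of small differences also turned for Ank1 and Lmo2 after 6 h of CHZ868, for Slc25a38, Abcb10, Gypc, Rhag, Epb42 and Bnip3l after the ruxolitinib washout, for Ppox after the CHZ868 washout, for Rhag in the difference of washout effects and for Lmo2 and Bnip3l in 6 h minus washout, none of them past the threshold with the sign turned.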
